A study of Mus musculus with 10 samples.

Results

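Matrix metalloproteinases are zinc-dependent enzymes that cut collagens, elastin and other proteins of the extracellular matrix, and the tissue inhibitors of metalloproteinases (TIMPs) block them by binding the active site. Described here are 10 genes of these 2 families, chosen by name: the metalloproteinases Mmp8, Mmp9, Mmp12, Mmp13, Mmp14, Mmp19 and Mmp25 and the inhibitors Timp1, Timp2 and Timp3. The choice was made with earlier results of these data known. They were 10 of 26173 genes in the deposited table, and all 10 were found there. Most metalloproteinases are secreted as inactive proenzymes, whereas Mmp14 and Mmp25 are held at the cell surface. In the lung the balance of enzymes and inhibitors is known from emphysema, and mice that lack the macrophage elastase Mmp12 have been studied for it.

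The study sequenced RNA of alveolar macrophages, the resident macrophages of the airspaces, of C57BL/6 background. All mice are labelled female, at an age of 16 weeks. Bach2 encodes a transcription repressor known from lymphocytes, and the series concerns its part in the lung and in these macrophages. A line with floxed Bach2 and a CD4cre transgene, which acts in T cells, gave 3 groups, and its macrophages may still carry the gene. They were the line's controls (floxed control), knockout macrophages with the surface phenotype of controls (KO_normal) and knockout macrophages with an aberrant one (KO_abnormal), fractions that were thus chosen by surface markers. The other 2 groups were wild-type mice (WT) and mice with a germline Bach2 knockout (germline KO). The labels do not say whether the controls carried Cre, nor whether mice were pooled.

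Each group had 2 samples. They differed by little more than sampling noise, so they are treated as runs of a single library (Pearson's r of 0.993 to 0.998 across genes, and 0.685 to 0.853 between groups). FPKM is a fragment count divided by transcript length and by sequencing depth, so levels can be compared between genes. Depth was about 7.42 M to 9.33 M fragments per sample, estimated from the step that 1 read makes in low values. With 1 library a group, differences between groups have no replicate check and get no p-value. The word called is used for a gene whose level in 2 libraries differed by at least 4-fold on the log2(FPKM + 1) scale in the means and in every pairing of runs. The higher of the 2 levels had to reach 20 FPKM. Among genes at 20 FPKM or more, the median log2(FPKM + 1) difference was 0.0454 to 0.0526 between runs of a group. Between samples of different groups it was 0.482 to 0.973. Runs that do not overlap thus say little of the size of a difference. For Timp2, KO_abnormal and floxed control runs did not overlap at -0.16. The share of all genes without overlap was not counted. Bach2 itself averaged at most 0.0571 FPKM in every library and could not check the genotypes. The WT and germline KO libraries held the Y-linked transcript Eif2s3y (60.8 and 39.9 FPKM) and no Xist above 0.01 FPKM, against their female label, while the 3 libraries of the conditional line held Xist at 3.75 to 9.08 FPKM. Sex and line can thus not be told apart where the 2 control libraries are compared. The same holds where a knockout library is set against the control of the other line. Of 12 alveolar macrophage markers, 12 were at 1 FPKM or more in the floxed control, KO_normal and WT libraries, and 10 in each of the other 2. Against their controls, 8 of the 12 were called lower in KO_abnormal, 0 in KO_normal and 6 in germline KO, where 1 was called higher. Siglecf (entered as Siglec5), a defining surface receptor of the cell type, was at 0.134 FPKM in the KO_abnormal and 0.0247 FPKM in the germline KO library, against 94.1 to 197 FPKM elsewhere.

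In the RefSeq annotation of GRCm38.p6, Mmp13, Mmp12, Mmp1b, Mmp3, Mmp1a, Mmp10, Mmp8, Mmp27, Mmp20 and Mmp7 stand in that order on chromosome 9 as 10 neighbouring protein-coding genes. Mmp12 and Mmp8, the members with the most opposed values below, are thus members of 1 cluster. The 120 bases before the annotated start are printed for Mmp12, Mmp13 and Mmp8 of the cluster and for Mmp14, which like Mmp12 was called higher in KO_abnormal and germline KO, to show where they hold the letters TGAGTCA or, on the other strand, TGACTCA. This is the site of AP-1, the dimers of Fos and Jun proteins, and Bach proteins bind a longer site that contains it. Capitals mark it, and all 4 genes lie on the plus strand. The stretches are chr9:7347254-7347373 for Mmp12, chr9:7272394-7272513 for Mmp13, chr9:7558309-7558428 for Mmp8 and chr14:54431478-54431597 for Mmp14, each from RefSeq on GRCm38.p6.
Mmp12: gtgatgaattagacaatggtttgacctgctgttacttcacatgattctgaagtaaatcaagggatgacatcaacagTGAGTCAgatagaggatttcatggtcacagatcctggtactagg
Mmp13: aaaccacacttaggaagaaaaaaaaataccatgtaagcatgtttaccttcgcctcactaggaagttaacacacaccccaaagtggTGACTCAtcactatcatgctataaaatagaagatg
Mmp8: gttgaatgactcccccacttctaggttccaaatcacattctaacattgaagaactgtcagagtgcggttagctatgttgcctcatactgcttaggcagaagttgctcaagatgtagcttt
Mmp14: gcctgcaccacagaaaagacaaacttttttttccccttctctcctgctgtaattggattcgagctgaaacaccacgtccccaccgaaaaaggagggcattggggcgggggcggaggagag

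The site began 44 bases before the start of Mmp12 and 35 bases before that of Mmp13. Mmp12 has 2 starts in the RefSeq table, of which 1 held the site. The windows of Mmp8, Mmp14, Mmp25, Timp1, Timp2 and Timp3, from 250 bases before to 50 bases after the start, did not hold these letters, and Mmp9 and Mmp19 had no entry. Of the 10 cluster genes, 7 held the site: Mmp12 and Mmp13, and also Mmp1a, Mmp1b, Mmp3, Mmp7 and Mmp10. Of the 12 other genes of the 2 families with an entry, 0 did. Over all promoters of the table, 5.20% of 32851 held it. Counted per gene, as for the families, 5.95% of 27025 genes had a promoter with it. The longer site GCTGAGTCA (or TGACTCAGC), which contains the shorter one, was in 0 of the 8 members with an entry. It was in 0.454% of all promoters and 0.503% of all genes. Of the 7 cluster genes with the short site, Mmp12 reached 637 FPKM, Mmp13 reached 0.159 FPKM, and the other 5 were listed at 0 or far under the worth of 1 read in all libraries.

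Mmp12, the macrophage elastase, was low in both control libraries and high in all 3 knockout libraries. It was at 2.49 and 1.72 FPKM in the 2 runs of the floxed control, 115 and 115 in the KO_normal, 275 and 283 in the KO_abnormal, 3.51 and 2.97 in the WT and 643 and 632 in the germline KO library. Runs of control and knockout libraries did not overlap, and the germline KO was the highest. By FPKM means, the KO_abnormal library was 132-fold and the KO_normal library 54.6-fold above the floxed control, and the germline KO 197-fold above WT. On the log2(FPKM + 1) scale the differences were 6.49, 5.22 and 7.23, and all were called higher. The WT exceeded the floxed control by 0.45 on that scale.

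Mmp14, a membrane-bound collagenase that also activates other proenzymes, was at or under the worth of 1 read in the controls. The floxed control had 1 run at about 1 read (0.0458 FPKM) and the other far under 1 read, and both WT runs were far under 1 read. It was at 3.50 and 5.11 FPKM in the KO_normal, 29.4 and 27.7 in the KO_abnormal and 60.1 and 66.0 in the germline KO library. All knockout runs lay above all control runs, and the 3 knockout libraries stood in the same order as for Mmp12. The log2(FPKM + 1) difference was 4.85 between the KO_abnormal and floxed control libraries and 6.00 between germline KO and WT, both called higher. With a pseudocount of 0.1 FPKM in place of 1 they were 7.86 and 9.30, since the controls are near 0. The KO_normal difference of 2.38 was not called because the level, 4.31 FPKM, is under the 20 FPKM floor.

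Mmp25, a metalloproteinase anchored to the membrane by a lipid and known from leukocytes, was found at a level above 2 reads in the KO_abnormal library alone. There it was at 35.9 and 35.8 FPKM, about 1251 and 1202 reads. In the floxed control and KO_normal libraries it was listed at 0 or far under 1 read in all 4 runs, and in the WT and germline KO libraries 1 run of each held about 2 reads (0.0395 and 0.0409 FPKM) and the other was listed at 0. Bicdl2, which overlaps the gene, was at 1.39 FPKM in the KO_abnormal library. The KO_abnormal library was called higher than the floxed control, with a log2(FPKM + 1) difference of 5.20 (8.49 with a pseudocount of 0.1), whereas germline KO and WT differed by 0.0010. Whether these 2 effects differ was not tested.

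Mmp8, a collagenase named for neutrophils, went the other way. It was at 43.3 and 44.0 FPKM in the floxed control, 38.7 and 40.5 in the KO_normal and 26.0 and 28.1 in the WT library. It was at 1.49 and 1.59 FPKM in the KO_abnormal and 0.955 and 0.609 in the germline KO library, about 28 and 29 reads and about 19 and 12 reads. The 3 libraries with control-like markers or no knockout were thus all above the 2 others with no overlap. By FPKM means, the floxed control was 28.4-fold above the KO_abnormal library and WT 34.6-fold above the germline KO, with log2(FPKM + 1) differences of -4.14 and -3.98 for knockout minus control, both called lower. The KO_normal library differed from the floxed control by -0.14 and was not called.

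Mmp19, which is made by macrophages and cuts basement membrane proteins, was the most even of the 7 members that passed the filter on low values. It was at 41.6 and 43.7 FPKM in the floxed control, 58.9 and 54.9 in the KO_normal, 70.0 and 64.8 in the KO_abnormal, 43.2 and 45.0 in the WT and 105 and 105 in the germline KO library. The floxed control and WT runs overlapped, and the 3 knockout libraries lay above them. No comparison was called: the KO_abnormal library was 1.58-fold above its control, the KO_normal library 1.33-fold and the germline KO 2.38-fold. The table lists 2 transcripts of the gene. Their shares moved between runs of 1 library, from 26.2 to 37.1 FPKM for the longer one in the KO_abnormal library, so the sum is used here and the split is not.

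Mmp9, the gelatinase of neutrophils and activated macrophages, was listed at 0 in all 10 samples. Mmp13, a collagenase, was found in the KO_abnormal library at 0.134 and 0.183 FPKM, about 3 and 4 reads, and in 1 germline KO run at about 1 read (0.0432 FPKM), and was listed at 0 in the other 7 samples. An entry at 0 in this table is no proof of absence: Tbp, a transcription factor that all cells use, was listed at 0 in both WT runs and was at 4.31 to 17.6 FPKM in the other libraries.

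**Figure D1:**
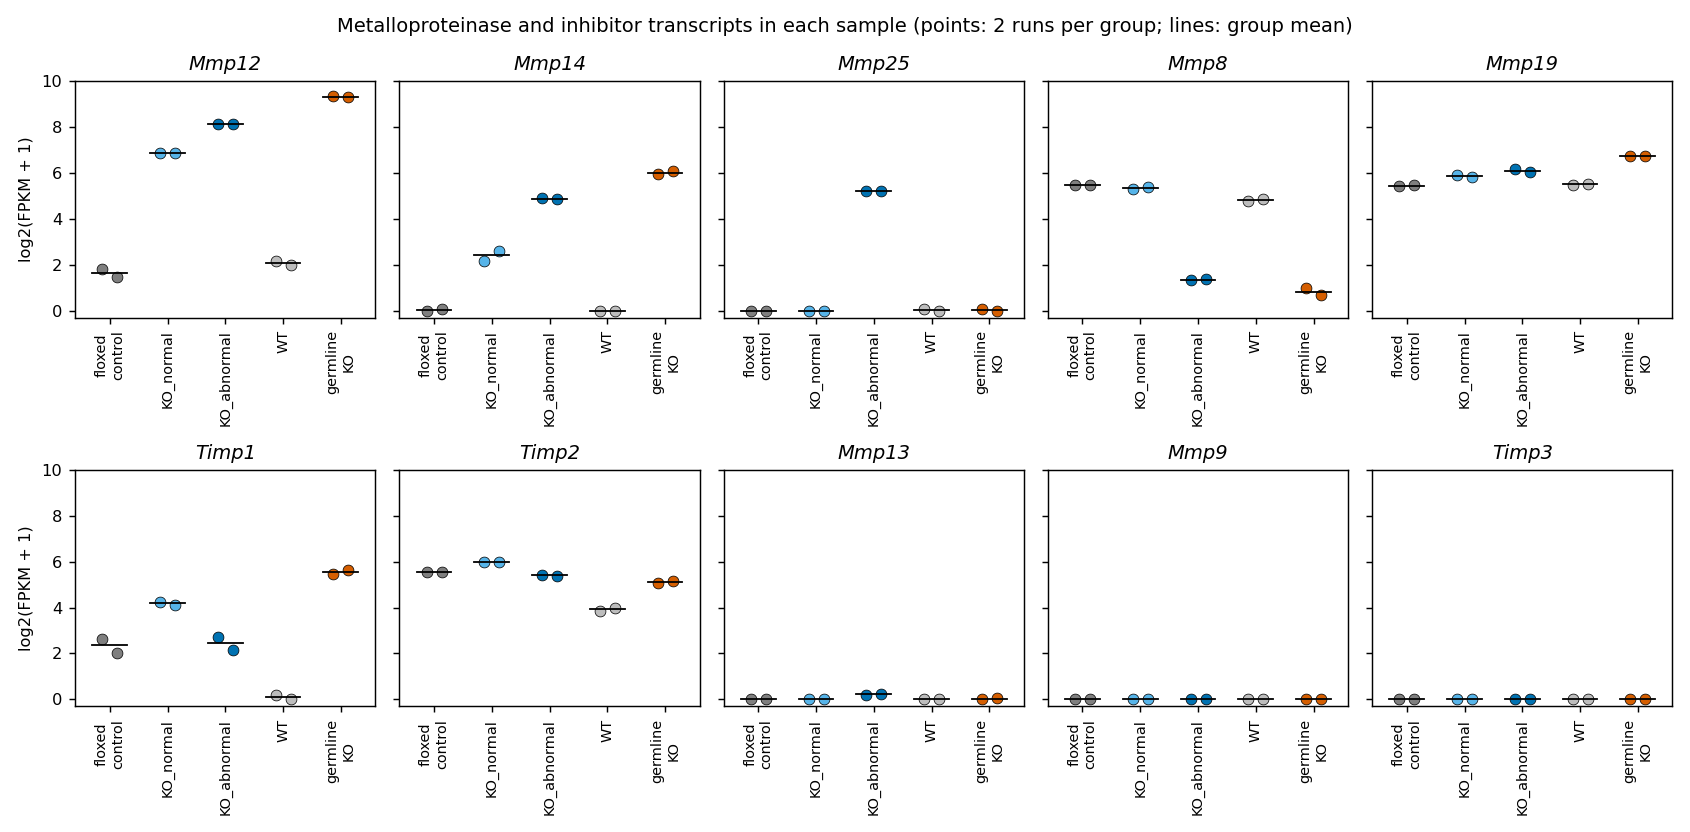
Each panel shows 1 gene, with log2(FPKM + 1) on the vertical axis and the 5 groups on the horizontal axis; points are the 2 runs of a library and lines the level of their mean. Mmp12 is high in the 3 knockout libraries, Mmp14 is high in KO_abnormal and germline KO and lower in KO_normal (4.31 FPKM), Mmp8 is low in the KO_abnormal and germline KO libraries, Mmp25 stands out in the KO_abnormal library, and Mmp9 and Timp3 are at 0 throughout.

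Of the inhibitors, Timp1, a secreted inhibitor that many cells induce on stimulation, differed most. It was at 5.16 and 3.07 FPKM in the floxed control, 17.9 and 16.3 in the KO_normal, 5.64 and 3.49 in the KO_abnormal, 0.145 and 0 in the WT and 42.9 and 48.5 in the germline KO library. The germline KO was highest and WT lowest, while the floxed control and KO_abnormal runs overlapped. Germline KO minus WT was 5.44 on the log2(FPKM + 1) scale and called higher; against the floxed control it was 3.19, a reference added after the data were seen, so the size depended on the control. KO_abnormal minus floxed control was 0.12, between -0.46 and 0.71 over the pairings of runs. KO_normal minus floxed control was 1.82 and was not called. Timp1 lies within the gene Syn1, and whether the reads keep their strand is not stated. Syn1 was at 25.8, 8.42, 6.13, 11.5 and 3.57 FPKM in the floxed control, KO_normal, KO_abnormal, WT and germline KO libraries, and its part in the Timp1 values was not tested.

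Timp2, an inhibitor that also takes part in the activation of pro-Mmp2 at the cell surface by Mmp14, was present in all libraries. It was at 45.8 and 46.3 FPKM in the floxed control, 61.6 and 61.4 in the KO_normal, 42.0 and 40.2 in the KO_abnormal, 13.4 and 14.7 in the WT and 32.9 and 34.6 in the germline KO library. The runs of the 5 libraries did not overlap. The 2 control libraries were 3.27-fold apart, more than any knockout library was from its own control. The germline KO was 2.40-fold above WT but lay below the floxed control, and no comparison was called. Timp3, an inhibitor that binds to the matrix and is known from stromal cells, was far under 1 read or listed at 0 in all 10 samples. The stromal markers Col1a1, Col1a2, Col3a1, Pdgfra, Pdgfrb, Dcn, Lum and Tcf21 were under 0.01 FPKM in all 5 libraries as well, 8 of the 9 on that list.

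Read against all genes, the called members were as follows. In bulk samples, fewer cells of a type and less RNA per cell cannot be told apart. Between the KO_abnormal and floxed control libraries, 3 of 10 members were called higher (Mmp12, Mmp14 and Mmp25) and 1 lower (Mmp8), while 4.09% of the 11336 genes compared were called higher and 3.76% lower. Between the KO_normal and floxed control libraries, 1 was called higher (Mmp12) and 0 lower, against 0.935% and 0.838%. Between germline KO and WT, 3 were called higher (Mmp12, Mmp14 and Timp1) and 1 lower (Mmp8), against 2.73% and 3.36%. Between the 2 control libraries 0 members were called, against 0.935% of genes higher and 1.17% lower in WT. Within the conditional knockout, the KO_abnormal library was called higher than the KO_normal library for Mmp14 and Mmp25 and lower for Mmp8, against 4.02% and 3.26%, and its Mmp12 level was 2.42-fold higher, under the threshold. The KO_abnormal, KO_normal and WT comparisons share the floxed control. In all, 3 of the 10 members (Mmp9, Mmp13 and Timp3) did not pass the filter of 1 FPKM in 2 samples. Of the 7 that passed, Mmp25 did so through the KO_abnormal library and Mmp14 through knockout libraries. All 7 reached the 20 FPKM that a call needs, which not all of the 11336 genes did. The pattern search below used 5321 other genes at that level, predicted genes left out. The shares among genes able to be called are thus larger than those given, and members and genes are not compared like for like. The members were also chosen with earlier results of these data known, so their counts beside these shares are a description only. The median log2(FPKM + 1) difference of the 7 was 0.65, 0.41 and 1.23 in the KO_abnormal, KO_normal and germline KO comparisons and -0.03 between the controls. Over all genes compared, the medians of these 4 comparisons were 0 to 2 decimals. Within the conditional knockout the medians were 0.24 for the 7 and 0.02 for all genes.

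**Figure D2:**
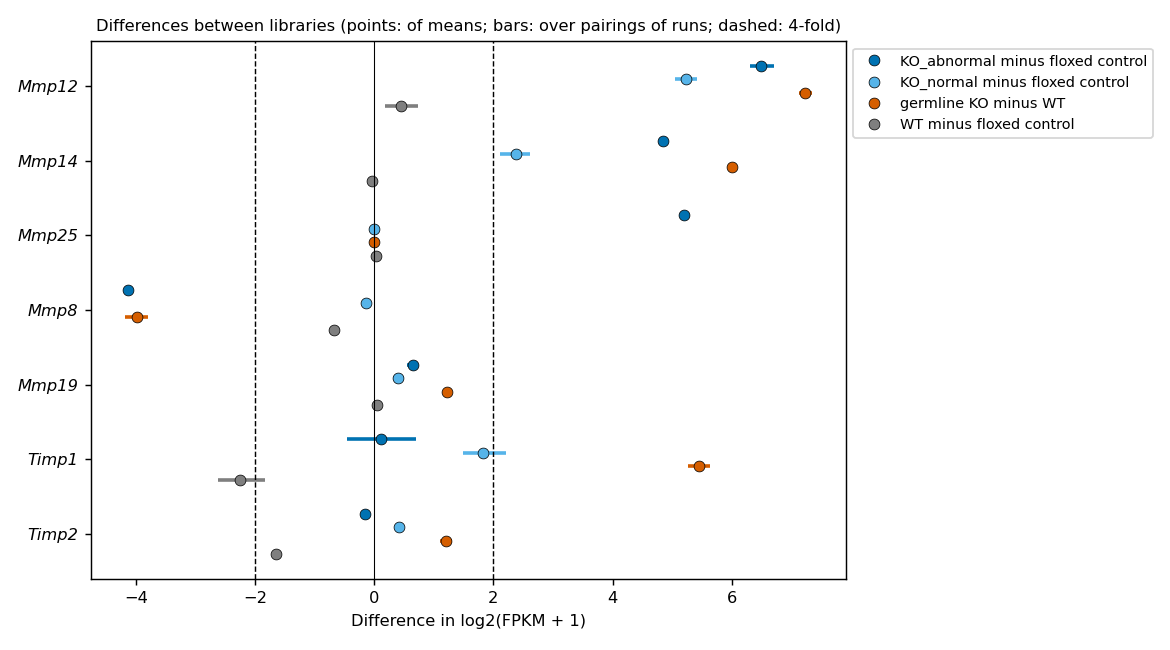
Points are differences of group means in log2(FPKM + 1) for the 7 members that passed the filter, bars run from the smallest to the largest difference over pairings of runs, and dashed lines mark 4-fold. Mmp12 lies beyond the line in the 3 knockout comparisons and Mmp8 beyond it on the lower side in 2, while Mmp19 and Timp2 stay between the lines.

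**Figure D3:**
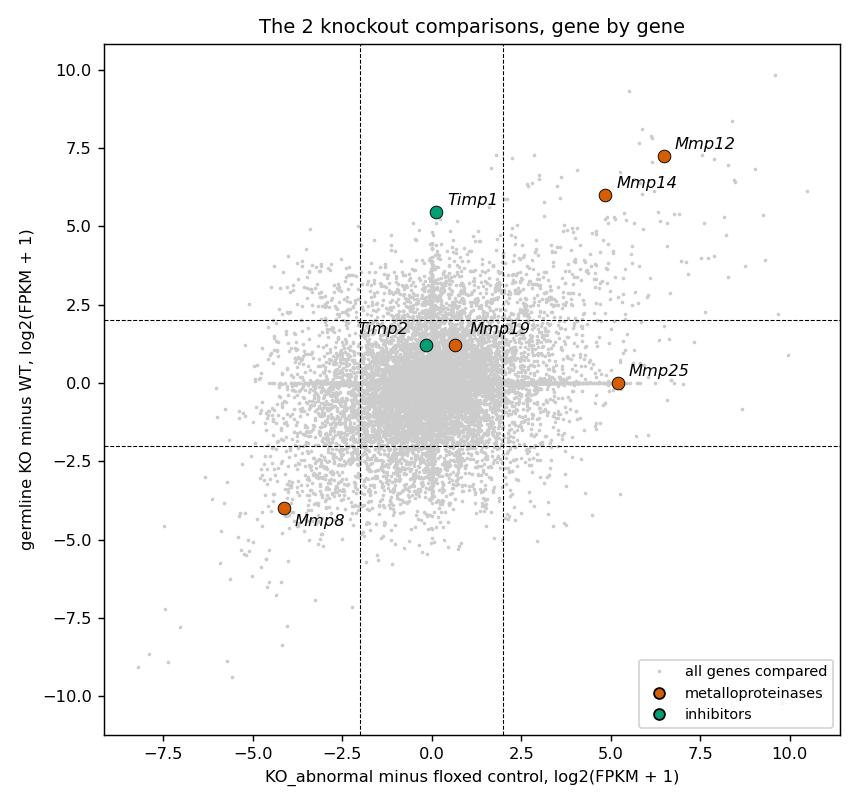
Each grey point is 1 of 11336 genes, with the KO_abnormal minus floxed control difference on the horizontal axis and germline KO minus WT on the vertical axis, both in log2(FPKM + 1); dashed lines mark 4-fold. Mmp12 (6.49 and 7.23), Mmp14 (4.85 and 6.00) and Mmp8 (-4.14 and -3.98) lie beyond the lines on both axes, Mmp25 (5.20 and 0.0010) on the horizontal axis and Timp1 (0.12 and 5.44) on the vertical axis.

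The make-up of the families differed between the libraries. The summed level of the 7 metalloproteinases was 88.5 FPKM in the floxed control, 216 in the KO_normal, 412 in the KO_abnormal, 74.4 in the WT and 806 in the germline KO library. Mmp8 and Mmp19 made up 49.4% and 48.2% of it in the floxed control and 36.3% and 59.3% in WT. Mmp12 made up 2.38% and 4.35% there, and 53.3%, 67.6% and 79.1% in the KO_normal, KO_abnormal and germline KO libraries. The inhibitors summed to 50.1, 78.6, 45.7, 14.1 and 79.5 FPKM in the order floxed control, KO_normal, KO_abnormal, WT and germline KO. The ratio of the sums was 1.76, 2.75, 9.03, 5.26 and 10.1 in that order. Without Mmp12 it was 1.72, 1.28, 2.92, 5.03 and 2.12, and WT was then the highest. RNA levels say nothing of active enzyme, which depends on proenzyme processing.

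**Figure D4:**
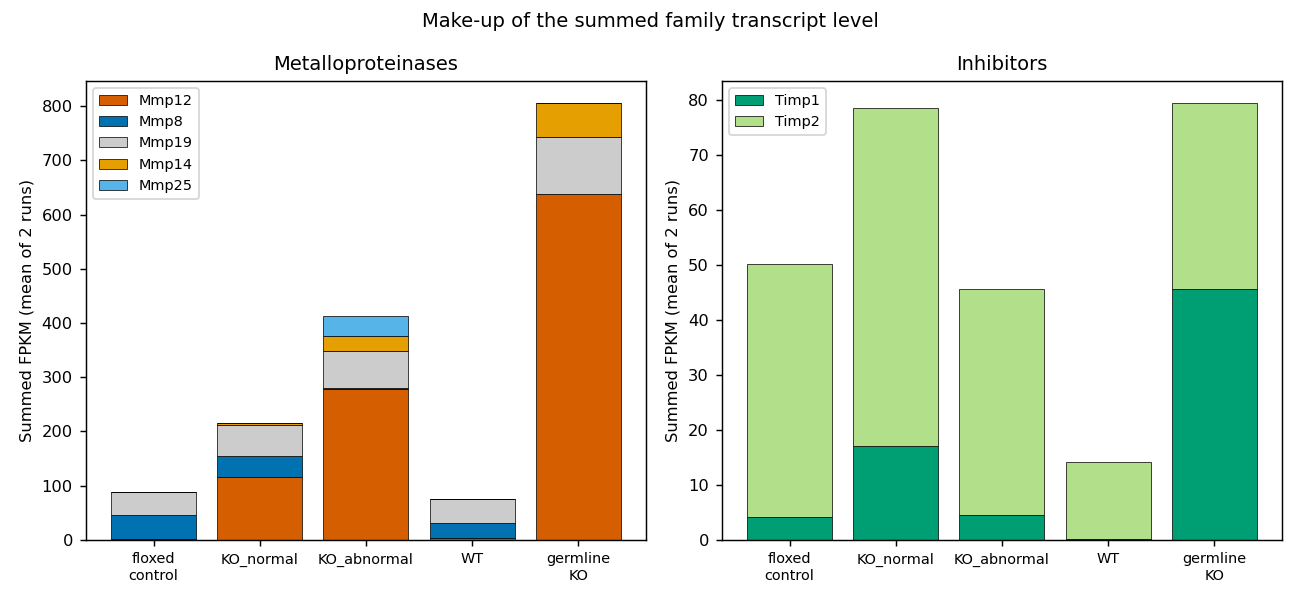
Stacked bars give the summed FPKM, mean of 2 runs, of the metalloproteinases (left) and inhibitors (right) in the 5 groups, on different vertical scales; Mmp9, Mmp13 and Timp3 are too low to draw. Mmp12 fills most of the left bar in the knockout libraries, up to 79.1% in the germline KO, and Mmp8 is visible in the floxed control, KO_normal and WT bars.

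The genes nearest in pattern were searched among 5321 genes at 20 FPKM or more in some library, by the root mean square difference of the centred log2(FPKM + 1) levels over the 5 libraries. For Mmp12 the nearest was the arginase gene Arg1 (0.34), which was at 0.310, 36.9, 76.1 and 273 FPKM in the floxed control, KO_normal, KO_abnormal and germline KO libraries and listed at 0 in WT, followed by the potassium channel gene Kcnn4 (0.58) and the ribonuclease gene Rnase2a (0.60). For Mmp14 they were the growth factor gene Pdgfa (0.29), Lat2 (0.31) and Tarm1 (0.34). For Mmp25 they were the G protein subunit genes Gnb4 (0.03) and Gng4 (0.04) and the adenosine receptor gene Adora2a (0.07). Mmp25 was near 0 outside the KO_abnormal library, so any gene found only there at a similar level comes out near it. These 3 genes were at 33.8, 38.0 and 39.9 FPKM in KO_abnormal, and their small distances show no more than that. For Mmp8 they were Mamdc2 (0.27), the prostaglandin E synthase gene Ptges2 (0.28) and Marveld2 (0.30). For Timp1 they were Bid (0.33), Arsg (0.52) and Gng12 (0.62). Each distance is taken over 5 points and is a description.

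The rest of the 2 families was nearly silent. Of 16 other metalloproteinase and inhibitor genes in the table, 1 passed the filter. That was Mmp23, a membrane-linked metalloproteinase, at 5.41 FPKM in the KO_abnormal and 8.00 in the germline KO library and listed at 0 in the other 3, under the floor for a call. Mmp2, the usual substrate of Mmp14, was listed at 0 in all libraries. Of 14 genes that activate, bind or clear the enzymes, 0 were called higher in a knockout comparison and 1 lower, the tetraspanin gene Cd9 (4595 FPKM in the floxed control, 621 in the KO_abnormal library). Furin, the protease that activates Mmp14 and Mmp25, was at 43.9 to 77.0 FPKM in all 5 libraries. Lrp1, the receptor that clears metalloproteinases and inhibitors, was not called. It was at 62.1 FPKM in the floxed control, 40.5 in KO_normal, 20.1 in KO_abnormal, 59.2 in WT and 54.1 in germline KO. Of 11 genes of plasminogen activation, a serine protease route that also opens proenzymes, 0 were called in the 3 knockout comparisons. Its activator Plau was at 4.05 FPKM in the KO_abnormal and 8.92 in the germline KO library and under 1 FPKM elsewhere.

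Of 14 measured ADAM and ADAMTS genes, related metalloproteinases that shed surface proteins or cut proteoglycans, 1 was called in the KO_abnormal comparison, 0 in the KO_normal comparison and 1 in the germline comparison. Adam19 was at 29.7 FPKM in the KO_abnormal library and under 0.01 FPKM in the 4 others. Adam9 was called lower in the germline KO, 10.3 against 46.5 FPKM. In the floxed control, KO_normal and KO_abnormal libraries it was at 34.2, 40.1 and 8.85 FPKM. KO_abnormal minus floxed control was -1.84 on the log2(FPKM + 1) scale and not called, while KO_abnormal was called lower than KO_normal (-2.06). Of 11 genes of serine elastases and antiproteases, 2 were called higher and 3 lower in the KO_abnormal library. Serpinb9, an inhibitor of granzyme B, was at 8.32 and 141 FPKM, and Wfdc17 at 69.4 and 333 FPKM, while the antiprotease genes Slpi (652 and 97.3 FPKM) and Serpinb1a (241 and 44.9 FPKM) and Wfdc21 (208 and 13.5 FPKM) were lower. Wfdc17 was called higher in the KO_normal library as well (484 FPKM) and in the germline KO (10.3 and 1643 FPKM), where Serpinb1a was called lower (310 and 52.4 FPKM). Wfdc17 was also called lower in WT than in the floxed control. Serpinb9 was at 2.66 FPKM in WT and 0.102 in the germline KO, the other direction, and was not called there. Elane, Prtn3 and Ctsg, the elastase-type proteases of neutrophils, were listed at 0 in all libraries.

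Of 18 genes of matrix proteins and other substrates, 1 was called in a knockout comparison. Spp1, encoding osteopontin, was at 455 FPKM in WT and 2234 in the germline KO. In the floxed control, KO_normal and KO_abnormal libraries it was at 457, 1756 and 262 FPKM, not called against the control. Fn1, encoding fibronectin, was at 93.1 to 322 FPKM in the 5 libraries, while Eln, Col1a1, Col1a2 and Col3a1, encoding elastin and fibrillar collagens, were under 0.01 FPKM in all. Of 15 measured AP-1, Maf and Bach genes, Batf3 was called higher in the KO_abnormal (8.06 and 148 FPKM) and KO_normal (45.9 FPKM) libraries. It is also on the list of dendritic cell markers used below. Fos was at 29.9 to 102 FPKM, Jun at 31.8 to 112 and Junb at 150.2 to 510 FPKM over the 5 libraries, not called in any knockout comparison. The share of all genes called in each direction is given with the members above.

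Markers of other cell types differed between these libraries. Of 11 markers of mature dendritic cells, 11 were at 1 FPKM or more in the KO_abnormal library, 8 in the germline KO and 4 to 6 in the others, with summed levels of 6108 and 6148 FPKM in the 2 runs of the KO_abnormal library, 404 to 409 in the germline KO and 66.8 to 128 in the others. Of 11 T cell markers, 9 were at 1 FPKM or more in the KO_abnormal library and 1 or 2 in the others, and Cd3e was at 17.7 FPKM there and listed at 0 elsewhere. The summed T cell level, 208 to 209 FPKM in the KO_abnormal library and 24.5 to 464 in the others, was nearly all Cd2 in those others, and Cd2 was at 45.7 FPKM in KO_abnormal. Of 11 markers of monocytes and interstitial macrophages, 8 were at 1 FPKM or more in KO_abnormal and in germline KO and 2 to 6 in the others, with sums of 1035 to 1039, 530 to 536 and 185 to 294 FPKM. Of these 11, 4 were called higher in KO_abnormal and 5 in germline KO against their controls, and 0 lower. C1qa, C1qb and C1qc were at 193, 375 and 284 FPKM in KO_abnormal and 33.6, 154 and 64.2 in germline KO. Csf1r and Cd14 were at 84.0 and 87.1 FPKM in the floxed control and 49.8 and 76.5 in KO_abnormal. They were at 83.4 and 125 in WT and 98.7 and 45.8 in germline KO. Cx3cr1, Ly6c2 and Lyve1 were under 1 FPKM in all libraries. The part of these cell types in the levels of Mmp12, Mmp14 and Mmp25 was not tested. Of 12 neutrophil markers, Ly6g, Mpo, Elane, Camp, Ltf, Ngp and Retnlg were listed at 0 in all libraries, 2 or 3 were at 1 FPKM or more in each, and the summed level was 9.66 to 62.5 FPKM over the 10 samples. In the 2 runs of each library that sum was 21.1 and 25.7 FPKM in the floxed control, 40.2 and 43.0 in KO_normal and 15.8 and 14.9 in WT, the 3 libraries with Mmp8 at 26.0 FPKM or more in each run. It was 9.66 and 19.1 in KO_abnormal and 62.5 and 52.5 in germline KO, the 2 with Mmp8 at 1.59 FPKM or less in each run. The markers in that sum did not move together. S100a8 was at 12.3, 31.3, 10.5, 4.83 and 43.7 FPKM in the floxed control, KO_normal, KO_abnormal, WT and germline KO libraries. Csf3r was at 10.8, 4.597, 3.61, 9.797 and 0.109 FPKM in that order. Its means were lowest in the 2 libraries with low Mmp8. Its runs in KO_normal (5.15 and 4.04 FPKM) and KO_abnormal (2.59 and 4.63 FPKM) overlapped, however. Cxcr2 and Lcn2 were highest in the germline KO, at 6.30 and 6.95 FPKM. The part of neutrophils in the Mmp8 levels was not tested. Of 9 markers of fibroblasts and stroma, Acta2 alone reached 1 FPKM, with at most 2.71 FPKM. Of 6 endothelial markers 1 to 3 reached it, summing to 1.71 to 23.8 FPKM, and of 9 epithelial markers 2 or 3, summing to 73.5 to 186 FPKM with Sftpc, Sftpb and Ager listed at 0. Of 9 eosinophil and mast cell markers 0 to 2 reached it, and Epx, Ccr3 and Cpa3 were listed at 0 in all libraries.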

How the data were processed

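RNA of 10 alveolar macrophage samples, 2 for each of 5 groups, was amplified from 100 pg with 18 PCR cycles, per the labels' protocols. Strand and molecular identifiers are not stated. The deposited table holds FPKM values that the authors made for 45913 RefSeq transcripts. The submitters' processing notes name Bowtie 1.1.2 and eXpress 1.5.1 without saying what each did. Build and filters: not given in the sources used here. All 10 columns matched a title, and 0 were left out. FPKM values were summed per Entrez gene with pandas 2.3.3. No count test was used. The 11336 genes that reached 1 FPKM in 2 or more samples were compared on log2(FPKM + 1), a scale that understates changes of low genes. The planned limma test for separate samples was not run, because the 2 samples of a group were counted as 1 library: at 1 to 10 FPKM their median squared read difference over the sum was 0.529 to 0.638, where draws from 1 library give 0.455 and different groups gave 58.9 to 86.5.

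Depth was estimated from single-transcript genes over 1.5 kb with GENCODE M21 lengths, within a window of 5 M to 20 M, and read numbers are approximate. The size rule was tried on simulated reads that held sampling noise alone and changes larger than its threshold. That trial leaves out differences between libraries and between mice, and so cannot say how often they lead to a call. Members, lists and rules were chosen with earlier results of these data known. Named genes are the members, up to 3 called genes per pathway list and direction, the 3 genes nearest in pattern to each called member, and others named after their values were seen. Of 196 list genes, 191 were found; the rest are not analysed here, and 1 called list gene is not reported here. Promoters came from RefSeq (GRCm38.p6), and protein sequences are not used here. Alternatives were the pseudocount, filter, scaling, threshold, floor, transcript choice, reference library and leaving out each sample.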

Additional observations from a re-analysis of the deposited data

Results flagged for a closer look

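Timp2 differed from its control in opposite directions in KO_abnormal and in germline KO, in every pairing of runs. KO_abnormal minus floxed control was -0.16 on the log2(FPKM + 1) scale, and germline KO minus WT was 1.21. The difference between the 2 was not tested, and neither was called. KO_normal, the other knockout library of the conditional line, had the direction of germline KO, with 0.41 against the floxed control and 2.05 against WT. The KO_abnormal difference was -0.07 with FPKM scaled by the median ratio and 1.48 against WT. The germline difference was -0.44 against the floxed control, a reference added after the data were seen. The direction in KO_abnormal and in germline KO thus depended on which control library was used, and that in KO_normal did not.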

How the results depend on the processing

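No called member lost its call or changed direction under any alternative run. Uncalled Timp1 in KO_abnormal against the floxed control (0.12) was -0.84 with its highest transcript only, 2.38 against WT, and -0.19 to 0.45 with a sample left out. The calls of members were the same with a pseudocount of 0.1, without the filter, under both scalings and with a floor of 5 FPKM. They were also the same with the highest transcript only, with each sample left out in turn and with the other control library as the reference. That library differs from the knockout library in line and in sex transcripts as well. With a threshold of 1 log2 unit in place of 2, members called higher in the germline KO were 5 in place of 3 (Mmp19 at 1.23 and Timp2 at 1.21 joined), members called lower in WT against the floxed control were 1 in place of 0 (Timp2 at -1.64), and Mmp12 was called higher in the KO_abnormal against the KO_normal library (1.27). Over all genes, that threshold gave 975 higher and 1035 lower for KO_abnormal against floxed control, 379 higher and 458 lower for KO_normal against floxed control, 1051 higher and 928 lower for KO_abnormal against KO_normal, 695 higher and 1018 lower for germline KO against WT and 432 higher and 470 lower for WT against floxed control. A floor of 5 FPKM gave 1097 higher and 1083 lower for KO_abnormal against floxed control, 490 higher and 574 lower for KO_normal against floxed control, 1162 higher and 1003 lower for KO_abnormal against KO_normal, 914 higher and 1012 lower for germline KO against WT and 484 higher and 714 lower for WT against floxed control. Against WT, 164 genes were lower in the KO_normal library, in place of 95. With a single library per group, no alternative measures the spread between mice. No paired analysis was run, because the replicate numbers are running sample numbers and say nothing of pairing between groups.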
